A study of Homo sapiens with 9 samples.

Results

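The genes described are those of the proteasome and its regulatory particles: every protein-coding gene of the deposited table whose symbol is PSM followed by a letter from A to G and a number. The rule finds 48 genes of the 58735 listed, or of 19951 that are protein-coding. The rule itself uses symbols and no measured value. The RNA came from HEK293A, an adherent derivative of the human embryonic kidney line HEK293, with a knockout of p65 (gene RELA), a subunit of the transcription factor NF-kB. The cells were transfected with a plasmid for p65 2CS, a plasmid for p65 WT, or vector, and after 24 h all of them received TNFα at 20 ng/mL for 2 h. Each group has 3 libraries, numbered 7 to 9 for p65 2CS, 4 to 6 for p65 WT and 1 to 3 for vector. All groups share the p65 knockout and the TNFα treatment, so a response to TNFα itself was not compared. The meaning of 2CS, the clonality of the knockout line and the use of separate cultures for the libraries are not stated, and the p-values therefore rest on the scatter among these libraries alone, which may be technical.

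The proteasome degrades proteins tagged with ubiquitin. Its core particle is a barrel of alpha and beta subunits with the proteolytic sites inside, and a regulatory cap of ATPase and non-ATPase subunits recognises, unfolds and feeds in the substrates. Under interferon γ or NF-kB signalling many cells make inducible catalytic subunits, PSMB8, PSMB9 and PSMB10, which take the places of PSMB5, PSMB6 and PSMB7 in newly assembled cores called immunoproteasomes, and the activator PA28, built from PSME1 and PSME2. Immunoproteasomes cut peptides that are well suited to MHC class I, and the transporter of TAP1 and TAP2 carries such peptides into the endoplasmic reticulum.

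Library totals were 17146134 to 25068515 counts with p65 2CS, 15989601 to 16507689 with p65 WT and 17923114 to 20162267 with vector. Expression is given as CPM, the usual depth-scaled count relative to the TMM-scaled library total, with SD over the 3 libraries of a group. Calls come from edgeR's quasi-likelihood test with Benjamini-Hochberg adjustment over all 18195 genes with enough reads, at a threshold of 0.05, and log2 folds carry their standard error. RELA reached 25518 ± 1382 CPM with p65 2CS, 9003 ± 943 CPM with p65 WT and 67.7 ± 1.61 CPM with vector (n = 3 each), so the 2 forms also differed 2.83-fold in RELA transcript, and reads of the plasmid cannot be told from reads of the knocked-out locus. The 10 genes listed as markers of the HEK293 line each had reads in every group, though NEFM had none in vector library 2. They summed to 1427 to 1463 CPM in p65 2CS, 1606 to 1658 CPM in p65 WT and 1670 to 1677 CPM in vector libraries. KRT8 alone averaged 829, 923 and 942 CPM in these groups. The markers were not steady: 60% were called in p65 WT against vector, 50% in p65 2CS against vector and 50% between the forms. Over all tested genes these shares were 28.8%, 23.4% and 31.2%. The 8 leukocyte genes summed to 5.80 to 6.05 CPM with p65 2CS, 6.15 to 6.99 CPM with p65 WT and 4.48 to 4.53 CPM with vector, and the pan-leukocyte gene PTPRC had no read in p65 WT or vector libraries. In bulk RNA, fewer cells of a kind and less RNA per cell cannot be told apart.

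PSMB9 and both PA28 subunits rose in p65 WT against vector, while the constitutive catalytic subunits PSMB5, PSMB6 and PSMB7 were not called in that comparison, apart from PSMB6 under 2 of the alternatives given below. In p65 2CS cells, PSMB9 was again higher than with vector, but PSME1 and PSME2 were close to their vector levels and lower than with p65 WT. Of the 48 genes, 44 had enough reads to be tested; PSMB8, PSMD5, PSMB11 and PSMA8 did not. Between the forms, p65 2CS against p65 WT, 1 of the 44 was higher and 15 were lower, or 36.4%, where 31.2% of all tested genes were called, 13.4% as higher and 17.9% as lower. In p65 WT against vector, 10 were higher and 1 was lower, or 25% of the 44, beside 28.8% of all tested genes, of which 16.4% were higher and 12.5% lower. In p65 2CS against vector, 2 were higher and 5 lower, or 15.9%, beside 23.4% of all tested genes, 12.1% higher and 11.4% lower. Counted in either direction these shares are near those of genes in general. By direction, 15 of 44 lower and 1 of 44 higher in p65 2CS against p65 WT stand beside 17.9% and 13.4%. In p65 WT against vector, 1 of 44 lower stands beside 12.5%, and 10 of 44 higher beside 16.4%. In p65 2CS against vector, 2 of 44 higher stand beside 12.1%, and 5 of 44 lower beside 11.4%. These departures were not tested. The median of the module's log2 folds was -0.07, 0.03 and -0.02 in these 3 comparisons, against 0.00, -0.02 and 0.00 over all tested genes. Libraries of the groups did not overlap for 4 genes above and 19 below in p65 2CS against p65 WT (18.9% and 21.8% of all tested genes), for 15 above and 2 below in p65 WT against vector (20.3% and 20.1%), and for 5 above and 10 below in p65 2CS against vector (18.5% and 18.1%). The largest log2 folds were those of inducible genes: no tested gene outside PSMB9, PSMB10, PSME1 and PSME2 had a log2 fold beyond -0.31 or 0.27 in any of the 3 comparisons. PSMB10 was not called in any of them and rests on few counts. In p65 2CS against vector only PSMB9 among them lay beyond that range, and between the forms PSMB9 lay within it. PSMD5, which was not tested, is described below.

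**Figure D1:**
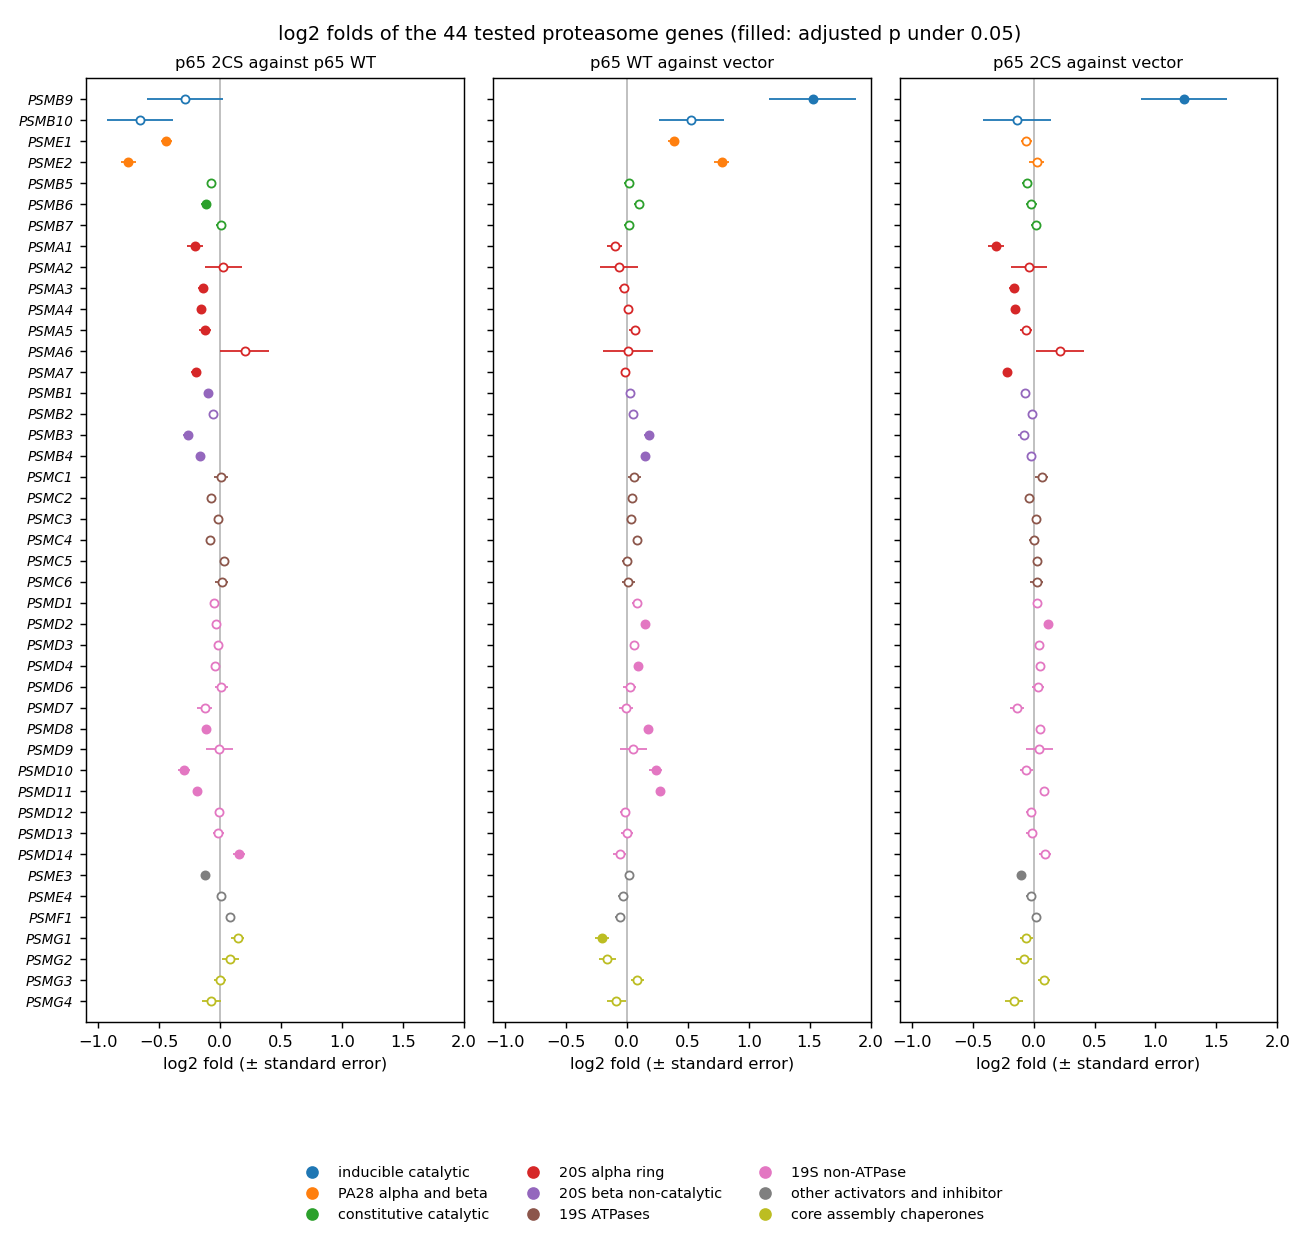
Log2 fold (horizontal axis, with standard error) of each of the 44 tested genes in p65 2CS against p65 WT, p65 WT against vector and p65 2CS against vector, coloured by role; filled points have an edgeR adjusted p under 0.05. PSMB9, PSME2 and PSME1 are the filled points farthest to the right in p65 WT against vector, and of these only PSMB9 is filled in p65 2CS against vector, while most constitutive subunits lie within 0.2 of 0.

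PSMB9 (ENSG00000240065, chromosome 6, 32844136 to 32859585 on the plus strand of GRCh38) encodes the inducible subunit that takes the place of PSMB6. It was present at 1.45, 1.43 and 0.948 CPM in the p65 2CS libraries, at 1.64, 1.52 and 1.55 CPM in the p65 WT libraries and at 0.480, 0.587 and 0.553 CPM in the vector libraries. All p65 libraries lay above all vector libraries, and p65 2CS library 9 lay below the other two of its group. The counts behind these values are small, 25, 36 and 18 with p65 2CS, 26, 24 and 25 with p65 WT, and 9, 12 and 10 with vector. PSMB9 rose 2.88-fold in p65 WT against vector, a log2 fold of 1.52 ± 0.36 (edgeR adjusted p = 0.000816), and 2.35-fold in p65 2CS against vector, a log2 fold of 1.24 ± 0.36 (edgeR adjusted p = 0.00868). With each library left out in turn, the adjusted p of the second comparison reached 0.0499 at most. Between the forms the log2 fold was -0.29 with a 95% interval of -0.92 to 0.34, so the p65 2CS and p65 WT levels were not distinguished at this depth (edgeR adjusted p = 0.527). The minimum level of the expression filter, 0.558 CPM, is taken on library totals without TMM scaling, unlike the CPM given above. On that scale PSMB9 met it in all p65 libraries but in 2 of the 3 vector libraries. Of the PSMB9 exon bases, 5.7% overlap other annotated genes.

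In RefSeq, PSMB9 lies head to head with TAP1, the gene of a peptide transporter subunit. The RefSeq starts of the pair are 488 bases apart, at 32854192 for PSMB9 and 32853704 for TAP1. The annotation that matches the counts starts PSMB9 at 32844136 instead, and TAP1, at 32845209 to 32853978, lies inside its span. The 250 bases before each RefSeq start are shown because the region between these starts is shared by both genes. In the TAP1 window (chr6:32853705-32853954, minus strand, GRCh38.p14) capitals mark a match to the kB consensus, the pattern to which NF-kB dimers bind, and 2 overlapping matches to GAAANNGAAA read on the opposite strand, a pattern of interferon regulatory factors. The PSMB9 window (chr6:32853942-32854191, plus strand) holds neither pattern, so no base of it is in capitals.
TAP1: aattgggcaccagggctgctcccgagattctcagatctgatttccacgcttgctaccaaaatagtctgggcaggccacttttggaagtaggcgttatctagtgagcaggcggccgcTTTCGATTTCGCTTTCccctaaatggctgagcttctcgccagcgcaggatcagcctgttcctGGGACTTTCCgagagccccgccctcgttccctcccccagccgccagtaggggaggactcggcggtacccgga
PSMB9: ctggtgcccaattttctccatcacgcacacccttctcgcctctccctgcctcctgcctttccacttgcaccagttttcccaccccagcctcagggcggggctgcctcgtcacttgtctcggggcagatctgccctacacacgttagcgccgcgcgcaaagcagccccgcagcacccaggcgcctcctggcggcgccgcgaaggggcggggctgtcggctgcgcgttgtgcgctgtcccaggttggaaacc
The kB match GGGACTTTCC lies 63 to 72 bases before the RefSeq start of TAP1 and 416 to 425 bases before that of PSMB9. A match is only a match of letters: searched on both strands, the kB consensus occurs in 2614 of 27305 RefSeq promoters of this length, or 9.57%, and GAAANNGAAA in 839, or 3.07%. TAP1 was at 42.4, 50.0 and 46.9 CPM with p65 2CS, at 84.0, 81.1 and 91.6 CPM with p65 WT, and at 27.4, 25.4 and 27.6 CPM with vector, so the 3 groups did not overlap. Its log2 fold was -0.87 ± 0.06 in p65 2CS against p65 WT (edgeR adjusted p = 1.82e-16). That of PSMB9 was not called there, but the PSMB9 interval of -0.92 to 0.34 includes the TAP1 value. With so few PSMB9 counts, the pair was therefore not shown to differ in that comparison.

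**Figure D2:**
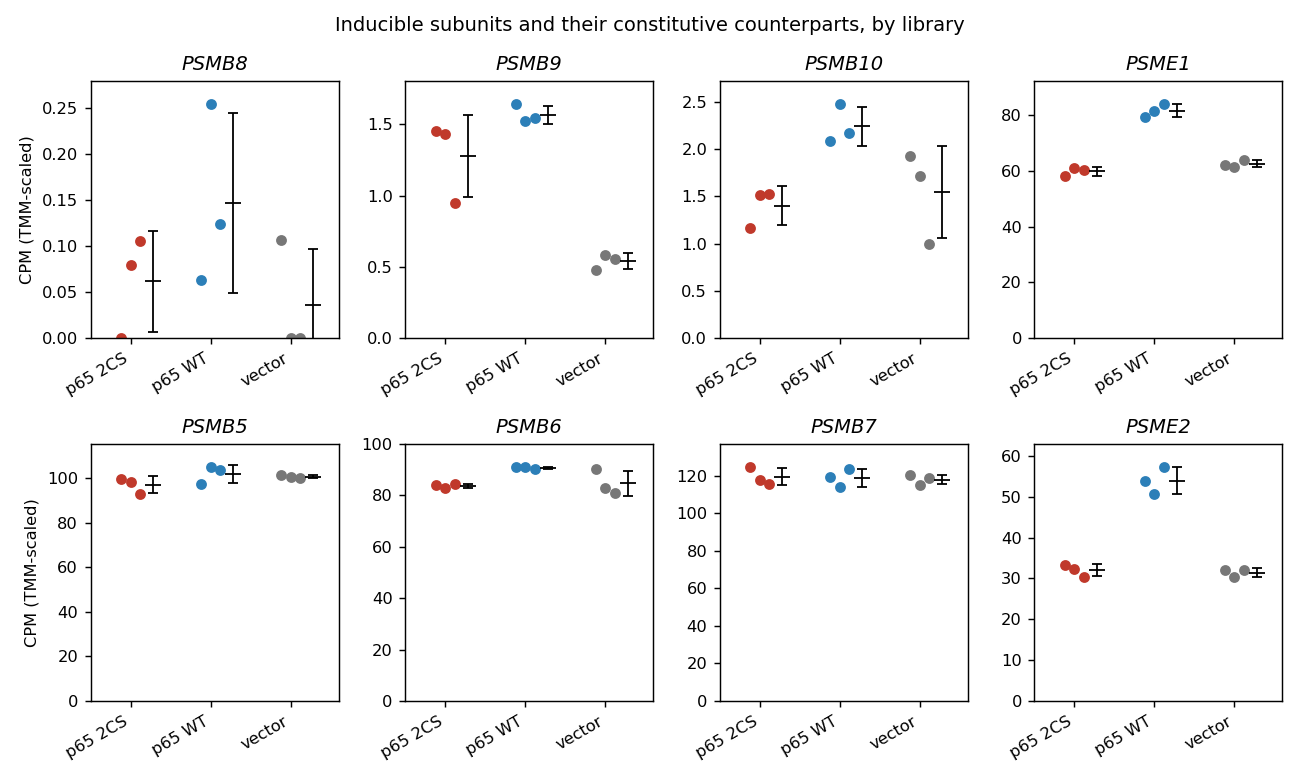
CPM (vertical axes, each from 0) of the 3 inducible catalytic subunits, both PA28 subunits and the 3 constitutive catalytic subunits, with 1 point per library and the mean ± SD beside each group, for p65 2CS, p65 WT and vector. PSMB9 lies above vector in both p65 groups, the p65 WT libraries lie above all others for PSME1 and PSME2, and PSMB5, PSMB6 and PSMB7 stay between 80.9 and 125 CPM in all 9 libraries.

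PSMB10 (ENSG00000205220, chromosome 16, 67934502 to 67937087, minus strand), the inducible counterpart of PSMB7, showed no called change. It had 1.16, 1.51 and 1.53 CPM with p65 2CS, 2.08, 2.47 and 2.16 CPM with p65 WT, and 1.92, 1.71 and 0.995 CPM with vector. The p65 WT libraries were the 3 highest of the 9, and the p65 2CS and vector libraries overlapped. The log2 fold was -0.66 ± 0.27 in p65 2CS against p65 WT (95% interval -1.21 to -0.12, edgeR adjusted p = 0.0583), 0.53 ± 0.27 in p65 WT against vector (95% interval -0.02 to 1.07, edgeR adjusted p = 0.144, and between 0.30 and 0.71 when any 1 library is left out) and -0.13 ± 0.28 in p65 2CS against vector (edgeR adjusted p = 0.79). With annotation on the same strand, 34.8% of its exon bases also belong to the gene AC040162.1, to which some of its reads may have been lost or assigned. The 250 bases before its RefSeq start (chr16:67936851-67937100, minus strand, GRCh38.p14) are shown for a GAAANNGAAA match 12 to 21 bases before the start, in capitals.
PSMB10: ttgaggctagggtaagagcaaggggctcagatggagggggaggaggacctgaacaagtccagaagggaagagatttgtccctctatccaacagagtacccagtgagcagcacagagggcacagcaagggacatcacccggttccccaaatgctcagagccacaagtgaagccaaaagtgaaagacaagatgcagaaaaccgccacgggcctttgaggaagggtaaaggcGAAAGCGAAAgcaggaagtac

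PSMB8 (ENSG00000204264, chromosome 6, 32840717 to 32844703, minus strand), the inducible counterpart of PSMB5, was close to absent. It had 0, 2 and 2 counts in the p65 2CS libraries, 1, 4 and 2 counts in the p65 WT libraries, and 2, 0 and 0 counts in the vector libraries. The groups overlapped, and the gene was below the level needed for a test. The ratio of summed counts, scaled by depth, was 1.87 for p65 2CS against vector (95% interval 0.268 to 20.6) and 0.446 for p65 2CS against p65 WT (0.0956 to 1.75). For p65 WT against vector it was 4.19 (0.798 to 41.4), with intervals that cover counting error only. A change of several fold in either direction would not be detectable at this depth. Of its exon bases 20.6% lie opposite other annotated genes, mainly PSMB8-AS1, which itself had 1, 2 and 0 counts with p65 2CS, 8, 2 and 1 counts with p65 WT and no read with vector.

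PSME1 and PSME2 encode the alpha and beta subunits of PA28, a ring that caps the core and opens its gate without ATP. PSME2 (ENSG00000100911, chromosome 14, 24143362 to 24147570, minus strand) was at 33.3, 32.2 and 30.5 CPM with p65 2CS, at 53.8, 50.7 and 57.2 CPM with p65 WT, and at 32.0, 30.2 and 32.1 CPM with vector. The p65 WT libraries stood above all others, and the p65 2CS and vector libraries overlapped. PSME2 was lower in p65 2CS than in p65 WT, with a log2 fold of -0.75 ± 0.06 (edgeR adjusted p = 1.6e-13). It rose 1.72-fold in p65 WT against vector, a log2 fold of 0.78 ± 0.06 (edgeR adjusted p = 5.24e-14). Against vector, p65 2CS gave a PSME2 log2 fold of 0.03, with a 95% interval of -0.10 to 0.15 (edgeR adjusted p = 0.826). The same letters GAAAGCGAAA also lie 49 to 58 bases before the RefSeq start of TAP2, which was not called in any comparison. The PSME2 promoter window (chr14:24146611-24146860, minus strand, GRCh38.p14) is shown beside that of PSMB10 because it holds these letters, here 19 to 28 bases before the start and in capitals.
PSME2: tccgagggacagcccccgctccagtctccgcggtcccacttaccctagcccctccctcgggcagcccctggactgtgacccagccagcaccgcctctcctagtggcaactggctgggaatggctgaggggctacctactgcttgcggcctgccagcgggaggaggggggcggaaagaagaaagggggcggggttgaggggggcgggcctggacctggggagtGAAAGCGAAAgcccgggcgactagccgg

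PSME1 (ENSG00000092010, chromosome 14, 24136158 to 24138967, plus strand) was at 58.1, 61.2 and 60.5 CPM with p65 2CS, at 79.3, 81.5 and 83.8 CPM with p65 WT, and at 62.1, 61.6 and 64.0 CPM with vector. Its p65 WT libraries again stood above all others, and its p65 2CS libraries lay just below those with vector. The log2 fold was -0.44 ± 0.05 in p65 2CS against p65 WT (edgeR adjusted p = 1.55e-10) and 0.38 ± 0.05, or 1.30-fold, in p65 WT against vector (edgeR adjusted p = 4.46e-09). For p65 2CS against vector it was -0.06, with a 95% interval of -0.15 to 0.03 (edgeR adjusted p = 0.389). Together the PA28 pair summed to 91.9 ± 1.32 CPM with p65 2CS, 135 ± 4.87 CPM with p65 WT and 94.0 ± 2.15 CPM with vector. PSME1 and PSME2 lie on the same chromosome within a short distance, and the PSME1 window holds neither a kB match nor a GAAANNGAAA match. Over the 42 of 48 genes with a RefSeq promoter entry, the kB consensus occurred in 1, PSMA8, and GAAANNGAAA in 5, which were PSMB10, PSME2, PSMA4, PSMB4 and PSMG4. Of other patterns searched, TGACNNNGC, the core of the antioxidant response element, occurred in 11 of the 42 and 11.0% of all promoters, and CCAAT in 18 of the 42 and 33.0% of all promoters.

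The constitutive catalytic subunits were far more abundant and varied little. PSMB5, which carries the chymotrypsin-like site, averaged 97.0 ± 3.78 CPM with p65 2CS, 102 ± 4.03 CPM with p65 WT and 101 ± 0.712 CPM with vector. PSMB7, of the trypsin-like site, averaged 119 ± 4.60, 119 ± 4.76 and 118 ± 2.56 CPM in the same groups. Neither was called in any comparison, and their log2 folds lay between -0.07 and 0.02. PSMB6, of the caspase-like site, had 84.0, 82.8 and 84.5 CPM with p65 2CS, 91.0, 91.0 and 90.4 CPM with p65 WT, and 90.2, 83.1 and 80.9 CPM with vector. The p65 2CS libraries lay below those with p65 WT, and the vector libraries overlapped those of p65 2CS and all lay below those with p65 WT. The PSMB6 log2 fold of -0.12 ± 0.04 in p65 2CS against p65 WT (edgeR adjusted p = 0.0297) lost its call with DESeq2, with scaling by library totals and without any of 5 single libraries (p65 WT 4 or 5, p65 2CS 7, 8 or 9). In p65 WT against vector its log2 fold of 0.10 ± 0.04 (edgeR adjusted p = 0.0736) was called with median-of-ratios size factors and without vector library 1.

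Per length, the inducible subunits made up a small share of each catalytic pair in every library. Length here covers all annotated exons of a gene, 3072 bases for PSMB9 and 1448 for PSMB6. The shares therefore depend on which of these exons the cells used, which was not examined. PSMB9 made up 0.715 ± 0.163% of the PSMB9 and PSMB6 pair with p65 2CS, 0.808 ± 0.0313% with p65 WT and 0.301 ± 0.0444% with vector. The share was higher in all p65 libraries than in any vector library. PSMB10 made up 1.12 ± 0.200% of its pair with PSMB7 with p65 2CS, 1.79 ± 0.226% with p65 WT and 1.25 ± 0.387% with vector, so that p65 2CS and vector overlapped. The log2 ratio of PSMB9 to PSMB6 differed by 1.24 in p65 2CS against vector and by 1.44 in p65 WT against vector, each with p = 0.1 in an exact two-sided permutation test, the smallest p that 3 against 3 libraries allow, and 0.15 adjusted over the 6 ratio comparisons. The PSMB10 to PSMB7 ratio gave the same p values in p65 2CS against p65 WT, with a log2 difference of -0.69, and in p65 WT against vector, with 0.58. All inducible catalytic subunits together were 0.660 ± 0.0656% of catalytic subunit expression per length with p65 2CS, 0.936 ± 0.0702% with p65 WT and 0.557 ± 0.138% with vector.

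**Figure D3:**
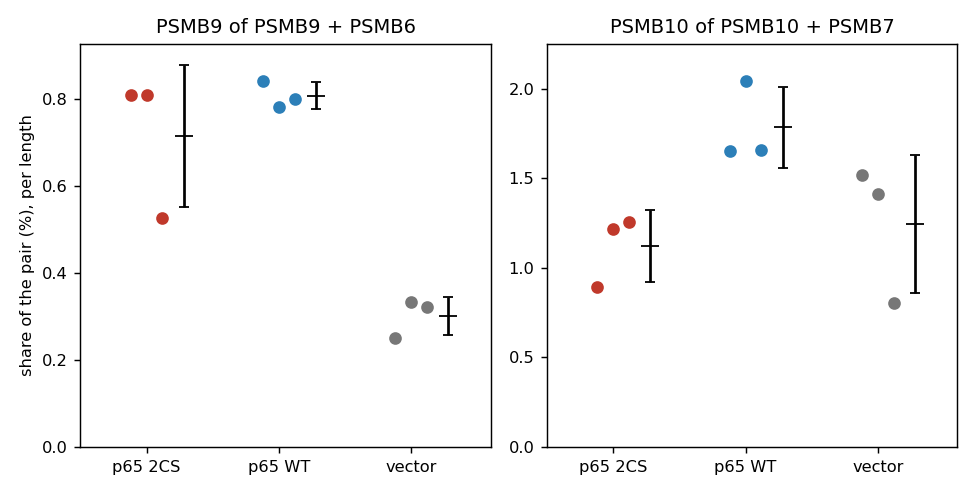
Share of the inducible subunit in its catalytic pair (vertical axis, percent of the pair's CPM per kilobase) for PSMB9 with PSMB6 and PSMB10 with PSMB7, with 1 point per library and the mean ± SD, for p65 2CS, p65 WT and vector. The PSMB9 share is higher in all 6 p65 libraries than in vector libraries, and the highest PSMB10 share, 2.05%, is that of a p65 WT library.

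Among the alpha subunits, which form the outer rings of the core and its gate, all calls were in comparisons with p65 2CS. Of the 7, in p65 2CS against p65 WT, 5 were lower (PSMA1, PSMA7, PSMA4, PSMA3 and PSMA5), and in p65 2CS against vector 4 were lower (PSMA1, PSMA7, PSMA3 and PSMA4), with a median log2 fold of -0.14 and -0.15. In p65 WT against vector 0 of 7 were called, with log2 folds between -0.10 and 0.06. Over all tested genes, 17.9% were lower between the forms and 11.4% in p65 2CS against vector. For p65 WT against vector 28.8% of them were called. PSMA7 had 155, 154 and 157 CPM with p65 2CS, 179, 170 and 186 CPM with p65 WT, and 182, 184 and 176 CPM with vector. Its p65 2CS libraries lay below all others, and p65 WT and vector overlapped. The PSMA7 log2 fold was -0.20 ± 0.03 in p65 2CS against p65 WT (edgeR adjusted p = 6.83e-06) and -0.22 ± 0.03 in p65 2CS against vector (edgeR adjusted p = 2.96e-06). PSMA4 averaged 153 ± 2.62 CPM with p65 2CS, 171 ± 1.63 CPM with p65 WT and 171 ± 2.46 CPM with vector, and its p65 2CS libraries again lay below all others. PSMA1 had the largest fall of the ring in p65 2CS against vector, with a log2 fold of -0.31 ± 0.06 (edgeR adjusted p = 0.000281), but 24.7% of its exon bases also belong to a gene on the same strand. Its call in p65 2CS against p65 WT, with a log2 fold of -0.21, was lost without p65 WT library 5 or p65 2CS library 8. In the same comparison the PSMA3 call was lost without p65 WT library 6, and the PSMA5 call with DESeq2, with scaling by library totals and without p65 WT library 4 or p65 2CS library 7 or 8. Summed over the 7 alpha genes, expression was 504 ± 3.89 CPM with p65 2CS, 564 ± 11.0 CPM with p65 WT and 567 ± 8.31 CPM with vector. The summed HEK293 marker genes given above were lowest in p65 2CS as well, and their part in this difference was not tested.

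The structural beta subunits complete the inner rings without a proteolytic site. Between the forms 3 of 4 were lower with p65 2CS (PSMB3, PSMB4 and PSMB1), and in p65 WT against vector PSMB3 and PSMB4 were higher. None of the 4 was called in p65 2CS against vector. Over all tested genes, 17.9% were lower between the forms and 16.4% were higher in p65 WT against vector. PSMB3 had 79.1, 83.1 and 82.3 CPM with p65 2CS, 96.7, 94.0 and 103 CPM with p65 WT, and 83.6, 89.8 and 85.8 CPM with vector. The p65 WT libraries were the highest, and those with p65 2CS all lay below those with vector. Its log2 fold was -0.26 ± 0.04 in p65 2CS against p65 WT (edgeR adjusted p = 3.63e-06) and 0.18 ± 0.04 in p65 WT against vector (edgeR adjusted p = 0.000881). PSMB4 averaged 195 ± 2.19 CPM with p65 2CS, 218 ± 2.94 CPM with p65 WT and 197 ± 3.18 CPM with vector, with log2 folds of -0.16 ± 0.03 between the forms and 0.14 ± 0.03 in p65 WT against vector. The PSMB1 call, at a log2 fold of -0.10, was lost with scaling by library totals and without any of 4 libraries (p65 WT 5 or 6, p65 2CS 7 or 8).

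In the regulatory cap, the 6 ATPases that unfold substrates (PSMC1 to PSMC6) were not called in any comparison, and their log2 folds lay between -0.08 and 0.08. Under alternatives, PSMC4 was called in p65 WT against vector with median-of-ratios size factors, in a fit of the 2 groups alone and without vector library 1, and between the forms PSMC4 was called without p65 2CS library 8 and PSMC2 without p65 2CS library 7. They summed to 778 ± 19.7 CPM with p65 2CS, 795 ± 11.0 CPM with p65 WT and 774 ± 11.4 CPM with vector. PSMC1 is read with the limit that 75.8% of its exon bases lie opposite the gene NRDE2. Of the 13 non-ATPase genes tested, 5 were higher in p65 WT than in vector: PSMD11, PSMD10, PSMD8, PSMD2 and PSMD4. They made up 38.5% of the 13, beside 16.4% of all tested genes called as higher in that comparison. PSMD3 was called there too with DESeq2, with median-of-ratios size factors and in a fit of the 2 groups alone. PSMD11, a lid subunit that holds the cap to the core, had 174, 179 and 174 CPM with p65 2CS, 206, 194 and 202 CPM with p65 WT, and 169, 166 and 163 CPM with vector. The 3 groups did not overlap, with p65 2CS between p65 WT and vector. The PSMD11 log2 fold was -0.19 ± 0.03 in p65 2CS against p65 WT (edgeR adjusted p = 7.85e-06) and 0.27 ± 0.03 in p65 WT against vector (edgeR adjusted p = 4.36e-09), and it was not called in p65 2CS against vector at 0.08 ± 0.03 (edgeR adjusted p = 0.0524). That comparison was called for PSMD11 with DESeq2, with median-of-ratios size factors, with the stricter filter, in a fit of the 2 groups alone and without p65 WT library 5 or 6.

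PSMD10, known as gankyrin, a chaperone of cap assembly, averaged 59.4 ± 3.06 CPM with p65 2CS, 73.1 ± 4.94 CPM with p65 WT and 62.1 ± 2.45 CPM with vector. Its log2 fold was -0.30 ± 0.05 in p65 2CS against p65 WT and 0.24 ± 0.05 in p65 WT against vector (edgeR adjusted p = 1.22e-05 and 0.000334). PSMD8, a lid subunit, was called in the same comparisons, with log2 folds of -0.12 and 0.17. PSMD2, a scaffold that docks ubiquitin receptors, was higher than vector with both forms, at 310 ± 6.07 CPM with p65 2CS, 317 ± 5.84 CPM with p65 WT and 287 ± 3.29 CPM with vector, with log2 folds against vector of 0.11 ± 0.03 for p65 2CS and 0.14 ± 0.03 for p65 WT (edgeR adjusted p = 0.0019 and 6.59e-05). PSMD4, a ubiquitin receptor, had a log2 fold of 0.09 in p65 WT against vector (edgeR adjusted p = 0.0389) that was not called without any 1 of the 3 p65 WT or the 3 vector libraries, nor with scaling by library totals. PSMD14, the deubiquitinase of the lid, was the only one of the 44 genes higher in p65 2CS than in p65 WT, with 63.5, 63.4 and 58.0 CPM in p65 2CS against 57.7, 54.0 and 54.4 CPM in p65 WT and 60.4, 56.4 and 56.4 CPM with vector. The PSMD14 log2 fold of 0.16 ± 0.05 (edgeR adjusted p = 0.0176) lost its call without p65 WT library 5 or 6 or without p65 2CS library 7 or 8.

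The other activators and the inhibitor changed little. PSME3, the nuclear PA28 gamma, was lower with p65 2CS, at 223 ± 3.93 CPM, than with p65 WT, at 243 ± 11.8 CPM, or vector, at 240 ± 7.43 CPM. Its log2 fold was -0.12 ± 0.03 against p65 WT (edgeR adjusted p = 0.00329) and -0.10 ± 0.03 against vector (edgeR adjusted p = 0.0175). The call against vector was lost with DESeq2 and without vector library 1 or p65 2CS library 7 or 8, and the call against p65 WT without p65 WT library 4. PSME4, the activator PA200, and PSMF1, the inhibitor PI31, were not called, except PSMF1 in the case below and between the forms, as higher, with scaling by library totals, with the stricter filter and without p65 WT library 4. Of the 4 chaperones that assemble the alpha ring, PSMG1 was lower in p65 WT than in vector, with 44.8, 43.0 and 43.5 CPM in p65 WT against 51.9, 49.0 and 50.2 CPM in vector, and 51.6, 48.1 and 45.4 CPM in p65 2CS. Its log2 fold in p65 WT against vector was -0.20 ± 0.06 (edgeR adjusted p = 0.0048), the only fall among the 44 genes in that comparison (with scaling by library totals 3 genes fell, PSMF1 and PSMG2 also), and PSMG2, PSMG3 and PSMG4 were not otherwise called, except PSMG4 in p65 2CS against vector without p65 2CS library 7. Between the forms PSMG1 was called as higher with scaling by library totals, with the stricter filter and without p65 2CS library 9.

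Levels were compared between genes per kilobase of exon, since lengths differ. The 44 tested genes ranged from 0.416 to 92.9 CPM per kilobase with p65 2CS, from 0.427 to 102 with p65 WT and from 0.176 to 103 with vector, and 38 of them stood at 5 or more in each group. PSMA7, PSMC3 and PSMB4 were the 3 highest in each group, and their order differed between groups. The lowest tested genes included PSMB9, at 0.416 ± 0.0930, 0.511 ± 0.0206 and 0.176 ± 0.0178 CPM per kilobase in p65 2CS, p65 WT and vector, and PSMB10. They also included the alpha subunits PSMA2, at 1.05, 1.02 and 1.07 CPM per kilobase, and PSMA6, at 0.492, 0.427 and 0.423, in the same order of groups. Both are obligate parts of the core, yet they stood far below the other 5 alpha subunits, of which PSMA1 was the lowest at 9.47, 10.9 and 11.7 CPM per kilobase. Of their exon bases, 34.6% (PSMA2) and 14.1% (PSMA6) overlap other annotated genes, and the annotation names 3 and 4 pseudogenes after them. How the counting treated such reads is not given in the sources used here, so the levels of these genes are uncertain.

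**Figure D4:**
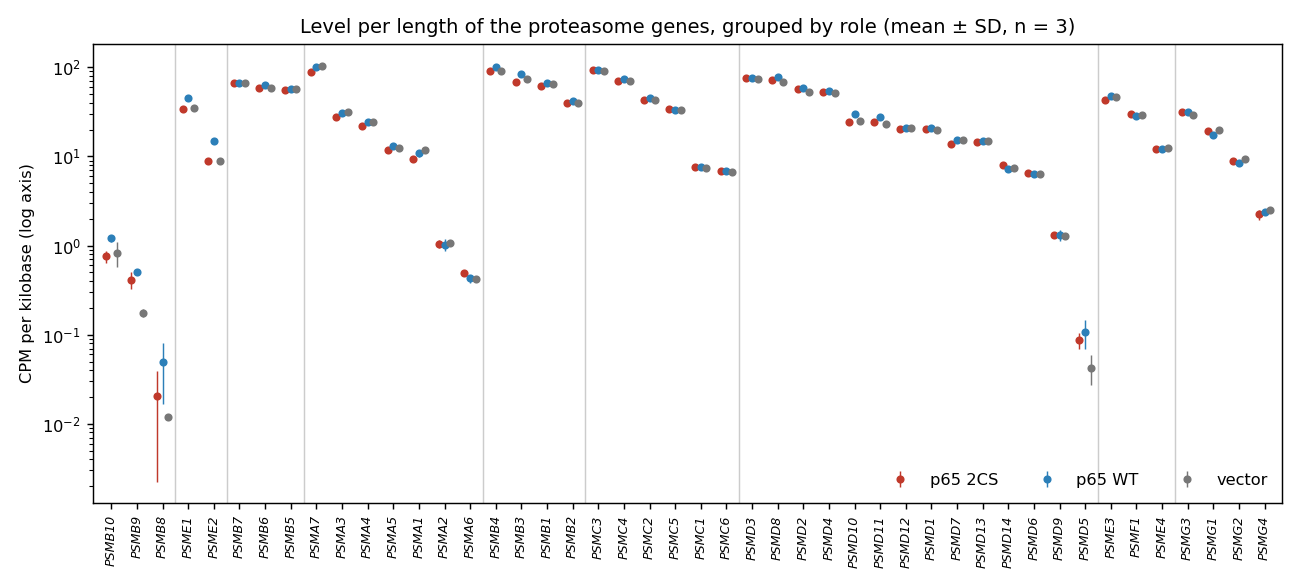
Mean CPM per kilobase of exon (vertical log axis, with SD where it is smaller than the mean, n = 3) of 46 genes, grouped by role between the vertical lines and ordered by their vector level, for p65 2CS, p65 WT and vector; PSMB11 and PSMA8, of 5 or fewer counts in any group, are not drawn. The inducible catalytic genes at the left, PSMA2, PSMA6 and PSMD5 are at or below 1.21 CPM per kilobase in every group.

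The 4 untested genes were described by their counts. PSMD5, a chaperone of ATPase assembly, had 5, 11 and 8 counts with p65 2CS, 6, 6 and 11 counts with p65 WT, and 4, 5 and 2 counts with vector. The p65 WT libraries lay above those with vector in CPM, as did those with p65 2CS. The ratio of summed counts, scaled by depth, was 2.50 in p65 WT against vector (95% interval 1.17 to 5.69) and 2.04 in p65 2CS against vector (0.961 to 4.61), and in a fit with no filter on low counts the edgeR adjusted p was 0.203 and 0.467. PSMB11, the subunit of thymic cortical epithelium, had 5 counts over the p65 2CS libraries, 2 over those with p65 WT and 1 over those with vector. PSMA8, which takes the place of PSMA7 in male germ cells, had 1, 5 and 0 counts in the same order, and the counting interval of its ratio in p65 WT against vector has a lower bound of 1.1. These few reads give no reliable comparison.

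Of 22 genes that assemble, regulate or feed the proteasome, 5 were higher and 8 lower in p65 2CS against p65 WT, 4 were higher and 3 lower in p65 WT against vector, and 3 were higher and 8 lower in p65 2CS against vector. These were 59.1%, 31.8% and 50% of the 22, beside 31.2%, 28.8% and 23.4% of all tested genes. NFE2L1, the transcription factor that raises proteasome genes when degradation is impaired, averaged 198 ± 2.08 CPM with p65 2CS, 234 ± 4.45 CPM with p65 WT and 212 ± 3.56 CPM with vector. The groups did not overlap, and its log2 fold was -0.24 ± 0.03 in p65 2CS against p65 WT (edgeR adjusted p = 1.22e-08), 0.14 ± 0.03 in p65 WT against vector (edgeR adjusted p = 0.000171) and -0.10 ± 0.03 in p65 2CS against vector (edgeR adjusted p = 0.011). DDI2, the protease that releases active NFE2L1, moved the other way and was lower in p65 WT than in vector, with a log2 fold of -0.30 ± 0.04 (edgeR adjusted p = 1.52e-07). NFE2L2 was also lower in p65 WT than in vector, at -0.28 ± 0.06 (edgeR adjusted p = 0.000119). NGLY1 was higher in p65 2CS than in p65 WT, at 0.22 ± 0.08 (edgeR adjusted p = 0.0207). With 1 library left out, the NGLY1 adjusted p reached 0.106. VCP, the unfoldase that delivers substrates, had a log2 fold of -0.23 ± 0.03 between the forms and 0.18 ± 0.03 in p65 WT against vector. POMP, the chaperone of core maturation, was lower in p65 2CS than in vector, with a log2 fold of -0.20 ± 0.04 (edgeR adjusted p = 0.000764), as were UBQLN2, a shuttle for ubiquitinated proteins, at -0.23 ± 0.04, and RPS27A, which encodes a ubiquitin fused to a ribosomal protein, at -0.19 ± 0.03.

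Of 12 genes that trim or carry peptides for MHC class I, 4 rose and 0 fell in p65 WT against vector: TAPBP, TAP1, ERAP2 and ERAP1. With p65 2CS against vector TAP1 and TAPBP rose, and in p65 2CS against p65 WT 4 were lower (TAPBP, TAP1, ERAP2 and ERAP1) and TPP2 was higher. The called shares of the 12 were 33.3% in p65 WT against vector, 16.7% in p65 2CS against vector and 41.7% between the forms. Over all tested genes the shares were 28.8%, 23.4% and 31.2%. ERAP1, an aminopeptidase that trims peptides in the endoplasmic reticulum, had 28.5, 27.9 and 30.8 CPM with p65 2CS, 38.7, 39.8 and 37.1 CPM with p65 WT, and 29.3, 27.6 and 28.8 CPM with vector. As with PSME2, the p65 WT libraries stood above all others while p65 2CS and vector overlapped, and the log2 fold in p65 2CS against vector was 0.02 (95% interval -0.11 to 0.16). TAP2, the partner of TAP1 in the transporter, was at 28.6 ± 0.541 CPM with p65 2CS, 30.6 ± 1.72 CPM with p65 WT and 30.1 ± 1.47 CPM with vector and was not called.

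Of 13 genes known to regulate the inducible subunits, 11 were tested. In p65 WT against vector 5 rose (IRF8, IRF1, IRF2, IFNGR2 and JAK1) and 0 fell, in p65 2CS against vector 4 rose (IRF8, IRF1, IRF2 and JAK1) and 0 fell, and in p65 2CS against p65 WT 4 were lower and 1 was higher. These were 45.5%, 36.4% and 45.5% of the 11, beside 28.8%, 23.4% and 31.2% of all tested genes. IRF1, a transcription factor that acts on PSMB9 and TAP1, had 30.7, 30.5 and 31.1 CPM with p65 2CS, 59.4, 58.9 and 57.5 CPM with p65 WT, and 15.6, 15.0 and 13.2 CPM with vector. The 3 groups did not overlap, with p65 2CS in between, and the log2 fold was -0.93 ± 0.06 between the forms (edgeR adjusted p = 2.67e-16). IRF2, a relative of IRF1, averaged 7.26 ± 0.842 CPM with p65 2CS, 7.04 ± 0.751 CPM with p65 WT and 3.98 ± 0.396 CPM with vector. Like PSMB9, IRF2 was above vector with both forms and not called between them. The interval of the log2 fold between the forms was -0.26 to 0.32 for IRF2. For PSMB9 it was wider, -0.92 to 0.34, and includes a fall as large as that of TAP1. NLRC5, the MHC class I transactivator, was not called in any of the 3 comparisons. IFNG had no read in any library.

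**Figure D5:**
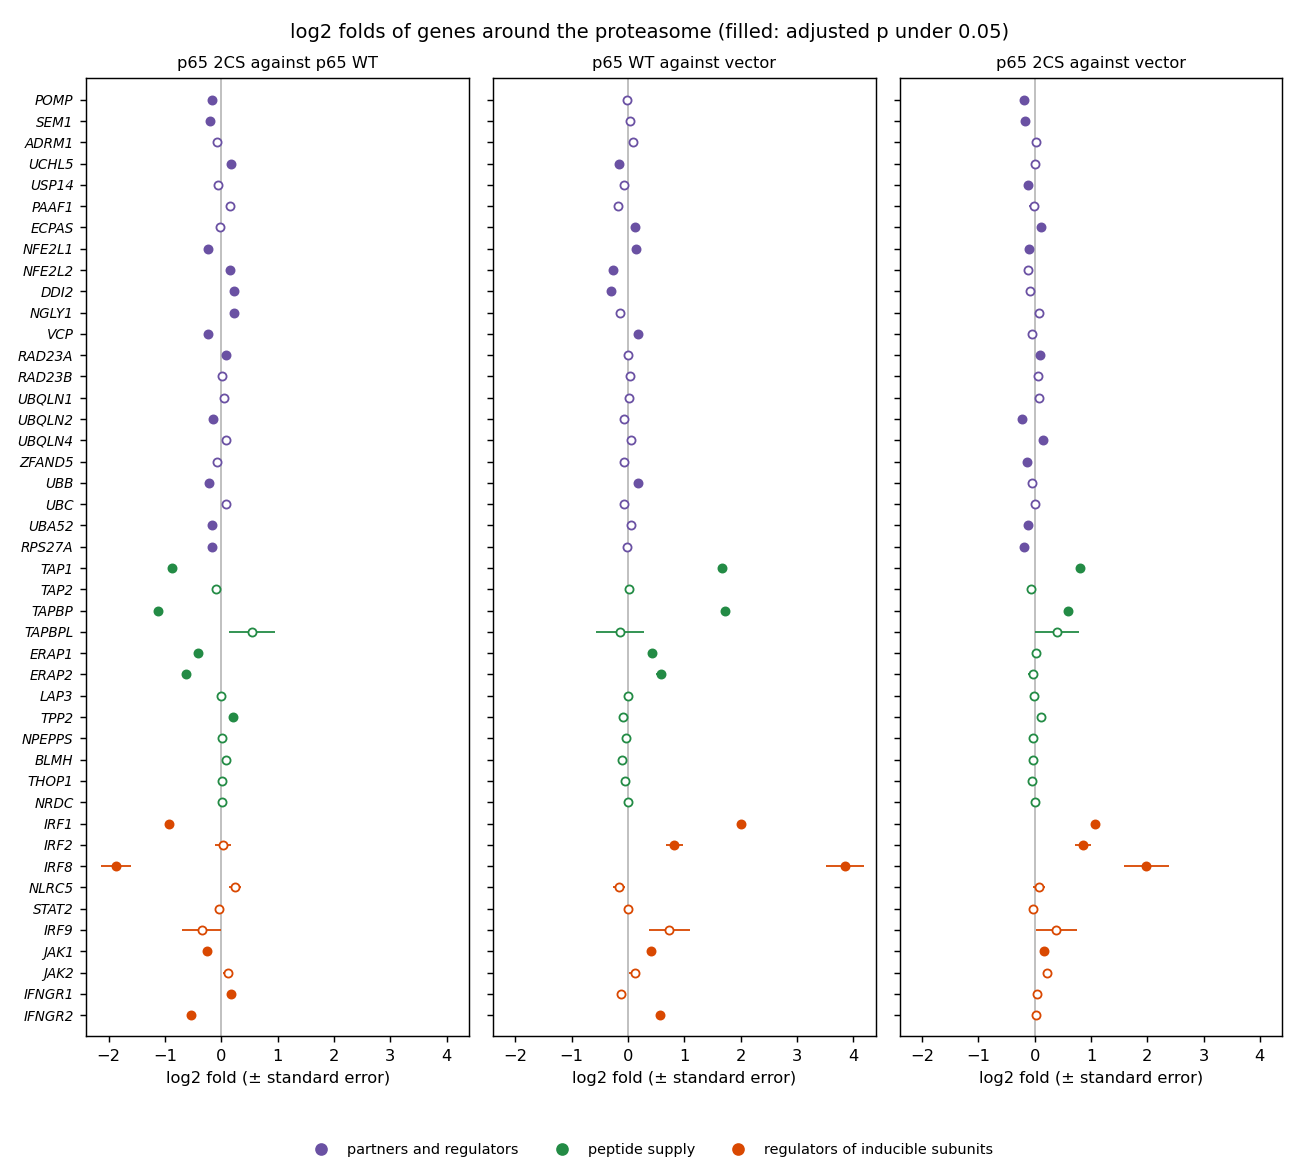
Log2 fold (horizontal axis, with standard error) of tested genes that assemble or regulate the proteasome, supply peptides to MHC class I or regulate the inducible subunits, in p65 2CS against p65 WT, p65 WT against vector and p65 2CS against vector; filled points have an edgeR adjusted p under 0.05. TAP1, TAPBP, IRF1 and IRF8 lie to the left of 0 between the forms and to the right of it against vector, and TAP2 and NLRC5 are unfilled in all 3 comparisons.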

How the data were processed

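Messenger RNA of 9 libraries, 3 per group, was selected by poly-A capture, per the labels' protocols. HISAT2 2.0.5 is named for alignment in the submitters' processing notes, while the tool and strand setting of the counting, and the build, are not stated there. The authors deposited raw read counts per gene, without normalization, and gene positions and lengths equal those of GENCODE 29 (GRCh38) for all 58735 genes. From these counts, CPM, TMM scaling, edgeR's expression filter and its quasi-likelihood test were computed here in a single fit of all libraries (R 4.3.3, edgeR 4.0.16, limma 3.58.1), with 18195 genes tested. Alternatives were DESeq2 1.42.0, other scalings and filters, fits on pairs of groups and each library left out. The method was tested on simulated data. Libraries of a group differed pairwise by more than counting noise (chi-square divided by its degrees of freedom, 1.91 to 2.6) and were kept as separate samples. Intervals of log2 folds come from the edgeR fit and include the scatter among libraries. Those of ratios of summed counts cover counting error only. The labels name no molecular identifiers, so reads may be copies of the same molecule.

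The rule for members uses gene symbols alone, but it and the lists were chosen with earlier results of these data known. Named genes were up to 3 called genes per list with the largest change in each comparison, plus the inducible and constitutive catalytic genes, PSME1, PSME2 and TAP2. Other genes named (PSMD4, PSMD14, PSMA2, PSMA6, PSMD5, ERAP1, NLRC5 and the rest) were chosen after their values were seen. Promoter sequences are those of RefSeq (GRCh38.p14), with 250 bases before each start. A listed gene is counted in its list but not reported here.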

Additional observations from a re-analysis of the deposited data

How the results depend on the processing

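No paired analysis was possible because no replicate number is shared between groups. The ratio of PSMB8 to PSMB5 was not computed because some libraries had no PSMB8 read. With scaling by library totals, genes lower in p65 WT against vector became 3642 instead of 2268, members lower in that comparison 3 instead of 1, and members higher in p65 2CS against p65 WT 3 instead of 1. The stricter expression filter also gave 3 members higher in p65 2CS against p65 WT, and leaving out each library in turn gave 0 to 2. PSMB9, PSME1 and PSME2 kept the calls given in the report under every alternative run.

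Some log2 folds near 0 that were not called changed sign. With scaling by library totals, p65 WT against vector gave -0.0246 for PSMB5, -0.0298 for PSMB7 and -0.0189 for TAP2. With each library left out in turn, p65 WT against vector ranged from -0.0036 to 0.0503 for PSMB5, from -0.0148 to 0.0421 for PSMB7 and from -0.0100 to 0.0686 for TAP2. In the same way p65 2CS against vector ranged from -0.362 to 0.0449 for PSMB10, from -0.0035 to 0.0579 for PSME2, from -0.0495 to 0.0286 for PSMB6 and from -0.0135 to 0.0365 for PSMB7, and p65 2CS against p65 WT from -0.0261 to 0.0310 for PSMB7. The log2 ratio of PSMB9 to PSMB6 in p65 2CS against p65 WT ranged from -0.310 to 0.0033, and that of PSMB10 to PSMB7 in p65 2CS against vector from -0.405 to 0.0599. The cause was not tested. Depth limits PSMB8, PSMB9, PSMB10 and PSMD5, which rest on few counts.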
